A study of Mus musculus with 24 samples.

Results

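Peaks of H3K4me2 and H3K4me1 were examined at 9 genes of the endoderm lineage in embryoid bodies (EB) and in the mouse embryonic stem (ES) cells they come from, with and without Prdm16. The genes are the transcription factors Sox17, Foxa1, Foxa2, Gata6, Hnf4a and Hhex, the chemokine receptor gene Cxcr4, and the secreted protein genes Afp and Apoa1. They were taken by name, as genes commonly used to follow endoderm, and all 9 were found among 21887 protein-coding genes of the RefSeq annotation of GRCm38, the coordinates of mm10. The measurement was CUT&RUN, in which an antibody guides a nuclease to chromatin and the released fragments are sequenced. The labels name 4 conditions of C57BL/6 background: Prdm16 KO and wild-type (WT) EB at day 6 of differentiation, and Prdm16 KO and WT ES cells. ES cells were grown on Matrigel with leukaemia inhibitory factor, serum and serum replacement, and EB, which are aggregates of differentiating ES cells, in serum medium. The sources used here give neither the allele, nor the part of Prdm16 removed, nor the number of clones. Each condition had 2 libraries per antibody, which gave 16 libraries for both H3K4 methylation marks and 8 for PRDM16. Nothing in the labels ties the libraries of 1 group to different cultures, so each p-value below reflects library-to-library spread that may be purely technical.

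Each library was a list of peaks called on that library alone. H3K4me2 lists held 13818 to 19246 peaks in EB and 22615 to 32874 in ES cells, and H3K4me1 lists held 5990 to 14082 in EB and 12746 to 15435 in ES cells. The shortest H3K4me1 lists, with 8943 and 5990 peaks, were those of KO EB. In H3K4me2 the ES lists were longer in KO, with 29138 and 32874 peaks against 24600 and 22615 in WT. They covered 78.3 and 81 Mb in KO ES cells against 65.5 and 59.2 Mb in WT ES cells. In EB the H3K4me2 lists covered less in KO, 39.1 and 39.2 Mb against 47.7 and 62.6 Mb in WT. The H3K4me2 lists of KO ES replicate 2 and WT EB replicate 2 had the largest cover of their stage, 81 and 62.6 Mb. These are the 2 H3K4me2 libraries whose titles open with the number 400 rather than 329, and the labels do not say what it marks. Read totals were not analysed here, so depth is unknown, and a gene without a peak is not a gene shown to lack the mark. PRDM16 lists held 173 and 187 peaks in KO EB against 146 and 258 in WT EB, and 586 and 499 in KO ES cells against 331 and 191 in WT ES cells. These counts do not set KO below WT in either stage, and the knockout itself was not checked here. Of 15 pluripotency genes, 8 in KO EB, 5 in WT EB, 5 in KO ES cells and 3 in WT ES cells had an H3K4me2 peak near a gene end in both lists. Peaks are not transcript levels, so these counts do not check the stage labels.

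Endoderm is the germ layer that forms the lining of the gut and organs such as liver and pancreas. Sox17, Gata6 and the FOXA factors act near the top of its gene network, with FOXA proteins able to bind closed chromatin. Hhex acts in anterior endoderm and the liver bud, and Hnf4a in visceral endoderm and liver. Dimethylated H3K4 is found at promoters and enhancers, and monomethylated H3K4 mainly at enhancers, including ones not yet active. PRDM16 is a zinc finger protein with a PR domain, a domain related to those of histone methyltransferases.

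RefSeq promoters of GRCm38.p6 were available for 7 of the 9 genes, with 10 sequences. The 7 sequences printed range from a start under H3K4me2 peaks in 8 of 8 lists (Hhex) to starts under none (Foxa1 and Afp). Each runs from 250 bases before to 50 bases after an annotated start, 5′ to 3′ on the gene's strand, with CpG dinucleotides in capitals.
Hhex, chr19:37434591-37434890, plus strand: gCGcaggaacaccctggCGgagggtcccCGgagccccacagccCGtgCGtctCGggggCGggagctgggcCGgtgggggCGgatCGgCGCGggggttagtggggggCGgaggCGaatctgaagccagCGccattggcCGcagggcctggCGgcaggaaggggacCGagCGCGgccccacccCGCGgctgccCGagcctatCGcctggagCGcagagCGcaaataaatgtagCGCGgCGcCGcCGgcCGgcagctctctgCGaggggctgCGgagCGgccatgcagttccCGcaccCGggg
Cxcr4, chr1:128592250-128592549, minus strand: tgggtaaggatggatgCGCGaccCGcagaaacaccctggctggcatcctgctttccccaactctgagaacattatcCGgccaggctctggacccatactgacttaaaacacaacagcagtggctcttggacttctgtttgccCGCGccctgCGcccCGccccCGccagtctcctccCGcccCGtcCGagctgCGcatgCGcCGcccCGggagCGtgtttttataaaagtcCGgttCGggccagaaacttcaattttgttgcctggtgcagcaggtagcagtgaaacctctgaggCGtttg
Foxa1, chr12:57546062-57546361, minus strand: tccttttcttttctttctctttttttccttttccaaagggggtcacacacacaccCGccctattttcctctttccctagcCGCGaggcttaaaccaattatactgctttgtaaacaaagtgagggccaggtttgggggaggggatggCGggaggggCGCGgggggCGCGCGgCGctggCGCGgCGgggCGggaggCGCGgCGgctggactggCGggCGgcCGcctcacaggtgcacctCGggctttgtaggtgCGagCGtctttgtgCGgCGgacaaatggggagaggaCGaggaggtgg
Foxa2 outermost start, chr2:148046920-148047219, minus strand: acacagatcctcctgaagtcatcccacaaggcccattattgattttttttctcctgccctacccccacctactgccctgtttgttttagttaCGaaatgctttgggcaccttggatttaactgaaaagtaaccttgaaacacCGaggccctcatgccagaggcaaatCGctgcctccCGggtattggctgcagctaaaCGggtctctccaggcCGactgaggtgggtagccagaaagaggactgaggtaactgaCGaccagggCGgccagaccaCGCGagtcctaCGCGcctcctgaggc
Hnf4a downstream start, chr2:163546905-163547204, plus strand: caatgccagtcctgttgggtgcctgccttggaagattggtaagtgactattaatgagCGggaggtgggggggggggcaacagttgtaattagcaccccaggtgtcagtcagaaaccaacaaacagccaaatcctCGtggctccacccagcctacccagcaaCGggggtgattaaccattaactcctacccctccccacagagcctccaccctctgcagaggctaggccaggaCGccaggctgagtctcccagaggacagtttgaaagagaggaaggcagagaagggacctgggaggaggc
Apoa1, chr9:46228380-46228679, plus strand: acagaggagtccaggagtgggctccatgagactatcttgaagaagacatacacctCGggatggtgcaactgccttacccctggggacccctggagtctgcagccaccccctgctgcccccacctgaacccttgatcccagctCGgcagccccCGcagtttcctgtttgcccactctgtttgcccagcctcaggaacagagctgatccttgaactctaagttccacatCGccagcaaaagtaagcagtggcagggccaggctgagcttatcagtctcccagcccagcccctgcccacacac
Afp, chr5:90490464-90490763, plus strand: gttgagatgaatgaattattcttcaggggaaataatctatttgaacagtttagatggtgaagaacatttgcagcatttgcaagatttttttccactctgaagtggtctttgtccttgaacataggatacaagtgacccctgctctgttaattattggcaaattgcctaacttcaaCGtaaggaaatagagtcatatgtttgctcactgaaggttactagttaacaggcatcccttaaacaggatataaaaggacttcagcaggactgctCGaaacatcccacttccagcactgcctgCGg

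The Hhex promoter held 37 CpGs, more than 92.7% of 21263 RefSeq promoters, and its start lay under an H3K4me2 peak in 8 of 8 lists. Cxcr4 had 20 CpGs, more than 64.1% of promoters, and a covered start in 7 of 8 H3K4me2 lists. Foxa1 had 26 CpGs, more than 77.4% of promoters, yet its start lay under an H3K4me2 peak in 0 of 8 lists. A CpG-rich promoter was therefore not always a covered one among these genes. The Foxa2 promoters had 13, 23 and 12 CpGs from the innermost to the outermost start, and each start was covered in 2 H3K4me2 lists. Apoa1 and the downstream Hnf4a promoter had 4 CpGs each and were covered at the start in 1 H3K4me2 list each, and Afp had 3 CpGs and was covered in 0. Apoa1 still had an H3K4me2 peak in 7 of 8 lists, beginning 78 to 1167 bp after the start where it did not cover it. Peaks of both WT EB lists began 779 and 598 bp after the downstream Hnf4a start. The share of all starts under a peak was not counted. The median over all promoters was 13 CpGs.

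Short motifs of factor families encoded by these genes, and the TATA box, were sought on both strands of the 10 promoters. The forkhead motif TGTTTAC, present in 3.01% of all promoters, was found once, 141 bases before the Foxa1 start on the other strand. The GATA motif AGATAA, present in 9.65% of promoters, lay 52 bases before the upstream Hnf4a start and 183 bases before the innermost Foxa2 start. The HNF4 motif CAAAGTCCA, present in 0.451% of promoters, was found in none of the 10. The TATA box letters TATAAA, present in 12.6% of promoters, lay 7 bases before the Afp start, 30 bases before the Cxcr4 start with a copy on the other strand at 32 bases, and 208 bases before the innermost Foxa2 start on the other strand. None of these matches overlapped a match of another motif, and a match of letters does not show binding.

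Over the gene spans the 8 H3K4me2 lists held 41 peaks and the 8 H3K4me1 lists 23. Within 2500 bp of a gene end the numbers were 35 for H3K4me2 and 26 for H3K4me1, and over the spans with 10 kb either side they were 42 and 43. Nearly all H3K4me2 peaks at these genes thus lay over the gene itself, and many H3K4me1 peaks lay outside it. A gene was called marked in a list when a peak overlapped, by at least 1 bp, a window of 2500 bp either side of either gene end. In H3K4me2, 2 of the 9 genes were marked in both lists of KO EB, 2 of WT EB, 5 of KO ES cells and 5 of WT ES cells. Of all protein-coding genes, 48.8%, 49.1%, 52.8% and 51.2% were marked in the same groups. In H3K4me1 the counts were 0 in KO EB, 1 in WT EB, 3 in KO ES cells and 4 in WT ES cells, and the shares of all genes were 4.08%, 9.75%, 12.4% and 13.9%.

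A list of 61 other endoderm genes (definitive endoderm and its inducers, primitive and visceral endoderm, gut tube and liver) gave a background closer in function. Of these, 21 in KO EB, 19 in WT EB, 27 in KO ES cells and 34 in WT ES cells were marked by H3K4me2 in both lists. H3K4me1 marked 5, 14, 12 and 16 in the same groups.

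**Figure D1:**
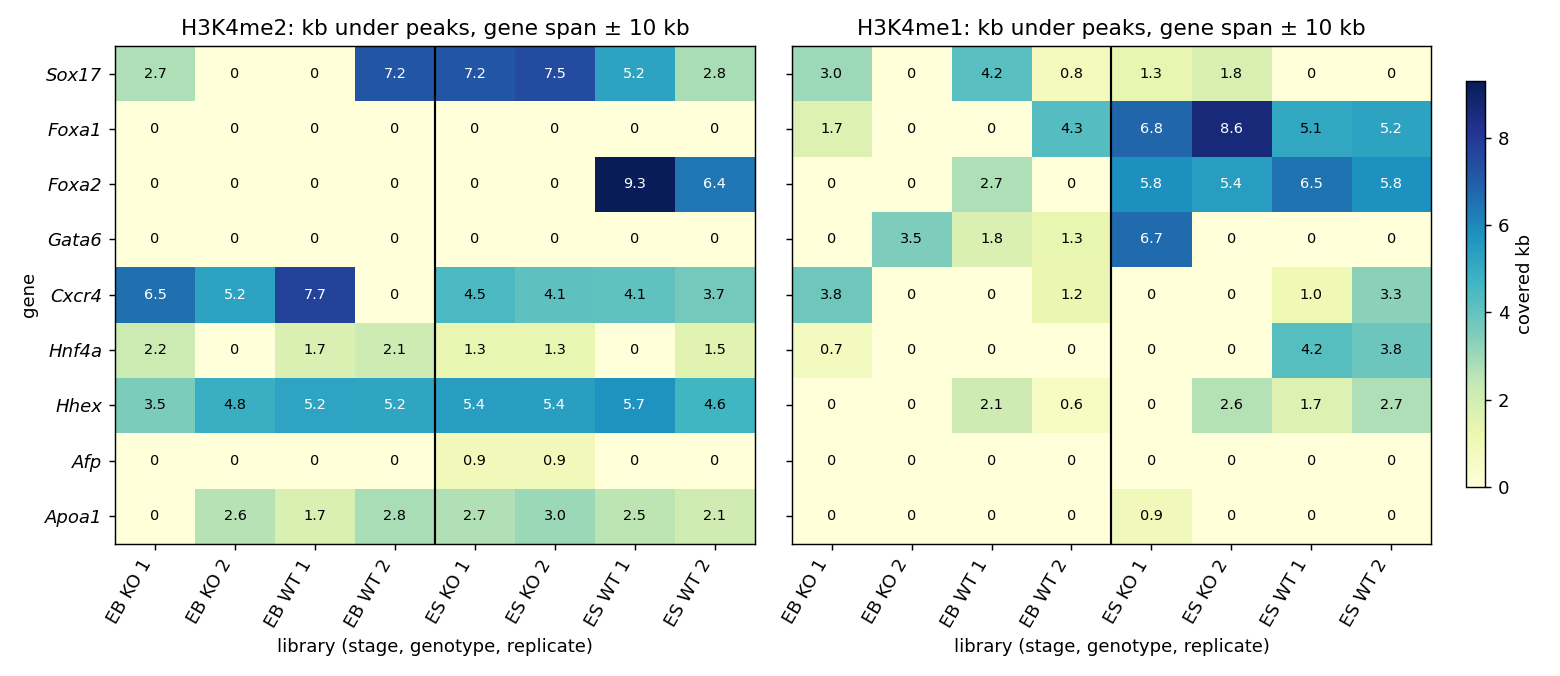
Kilobases under peaks within the span of each gene plus 10 kb either side, for H3K4me2 (left) and H3K4me1 (right). Each cell is 1 library and the vertical line separates EB from ES cells. Hhex holds H3K4me2 peaks in 8 of 8 libraries, Foxa1 and Gata6 in none, and the H3K4me1 cover at Foxa1 and Foxa2 is highest in the 4 ES libraries.

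The comparison of stages asked which of the genes differed between day 6 EB and ES cells. Foxa1 and Foxa2 had less H3K4me1 peak cover in each of the 4 EB libraries than in any of the 4 ES libraries, and neither passed an adjusted p of 0.05. No other of the 9 genes had all EB libraries apart from all ES libraries in either mark. Both encode forkhead pioneer factors of definitive endoderm and its derivatives.

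Foxa1 (chr12:57540628-57548029, minus strand) had H3K4me1 peaks over 1688 and 0 bp in KO EB and 0 and 4269 bp in WT EB, against 6783 and 8642 bp in KO ES cells and 5111 and 5238 bp in WT ES cells. The 4 EB libraries were all below the 4 ES libraries, whatever the genotype. The mean was 1.49 ± 2.02 kb in EB and 6.44 ± 1.65 kb in ES cells (SD, n = 4 each), a difference of -4.95 kb. The two-sided exact permutation p was 0.0286, the smallest that 70 assignments allow, and the Benjamini-Hochberg adjusted exact p over 21887 genes was 0.201. Each group of 4 pooled KO and WT libraries, and the assignments ignored genotype, so the spread also holds any genotype difference. For comparison, 12.1% of all genes had less H3K4me1 cover in every EB than in every ES list. With 1 ES library of either genotype left out, the exact permutation p for Foxa1 was 0.0571, and with cover scaled to all covered bases of the list it was 0.0857.

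At Foxa1 the ES peaks formed 2 regions. One lay around the 5′ end of the gene span, at chr12:57546060-57551363, and was present in 4 of 4 ES lists and 0 of 4 EB lists. It overlapped the span in both KO ES lists and WT ES replicate 1, and lay 0.082 kb outside it in WT ES replicate 2. Its peaks ranked high in their lists: 95.8% and 80.5% of the peaks of the KO ES lists and 90.3% and 94.1% of those of the WT ES lists had lower scores, where the score is the authors' own value. The peak ended 216 bp before the annotated start in KO ES replicate 1 and reached 51 bp past it in replicate 2, whereas in WT ES cells it stopped 1829 and 2001 bp short of it. The other region, at chr12:57534198-57538466, lay beyond the 3′ end and was present in 4 ES lists and in 1 list each of KO and WT EB. Ttc6, a neighbouring gene, lies within 10 kb of Foxa1, so part of this cover falls in the window of both genes. No H3K4me2 peak lay within 10 kb of Foxa1 in any list, and the nearest was 23.7 to 308 kb away.

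Foxa2 (chr2:148042877-148046969, minus strand) had H3K4me1 peaks over 0 and 0 bp in KO EB and 2714 and 0 bp in WT EB, against 5836 and 5431 bp in KO ES cells and 6498 and 5805 bp in WT ES cells. Again the EB and ES libraries did not overlap. The mean was 0.678 ± 1.36 kb in EB and 5.89 ± 0.444 kb in ES cells (SD, n = 4 each), a difference of -5.21 kb with an exact permutation p of 0.0286 and a Benjamini-Hochberg adjusted exact p of 0.201. With all H3K4me1 lists held to their 5990 highest-scoring peaks, the difference was -3.75 kb, the exact permutation p was 0.143 and the groups overlapped. At a score of at least 100 it was -1.47 kb, with an exact permutation p of 0.429. Foxa1 gave -6.02 kb at equal list lengths and kept an exact permutation p of 0.0286.

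The Foxa2 H3K4me1 peaks of ES cells also formed 2 regions, at chr2:148043189-148046848 over the gene body and at chr2:148037597-148041220 beyond its 3′ end, each in 4 of 4 ES lists. Neither held a peak in any EB list. The peak over the gene body began 1117 and 1066 bp after the outermost annotated start in KO ES cells and 121 and 204 bp after it in WT ES cells. The single EB peak near Foxa2, in WT replicate 1, lay 4655 bp before the outermost start.

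**Figure D2:**
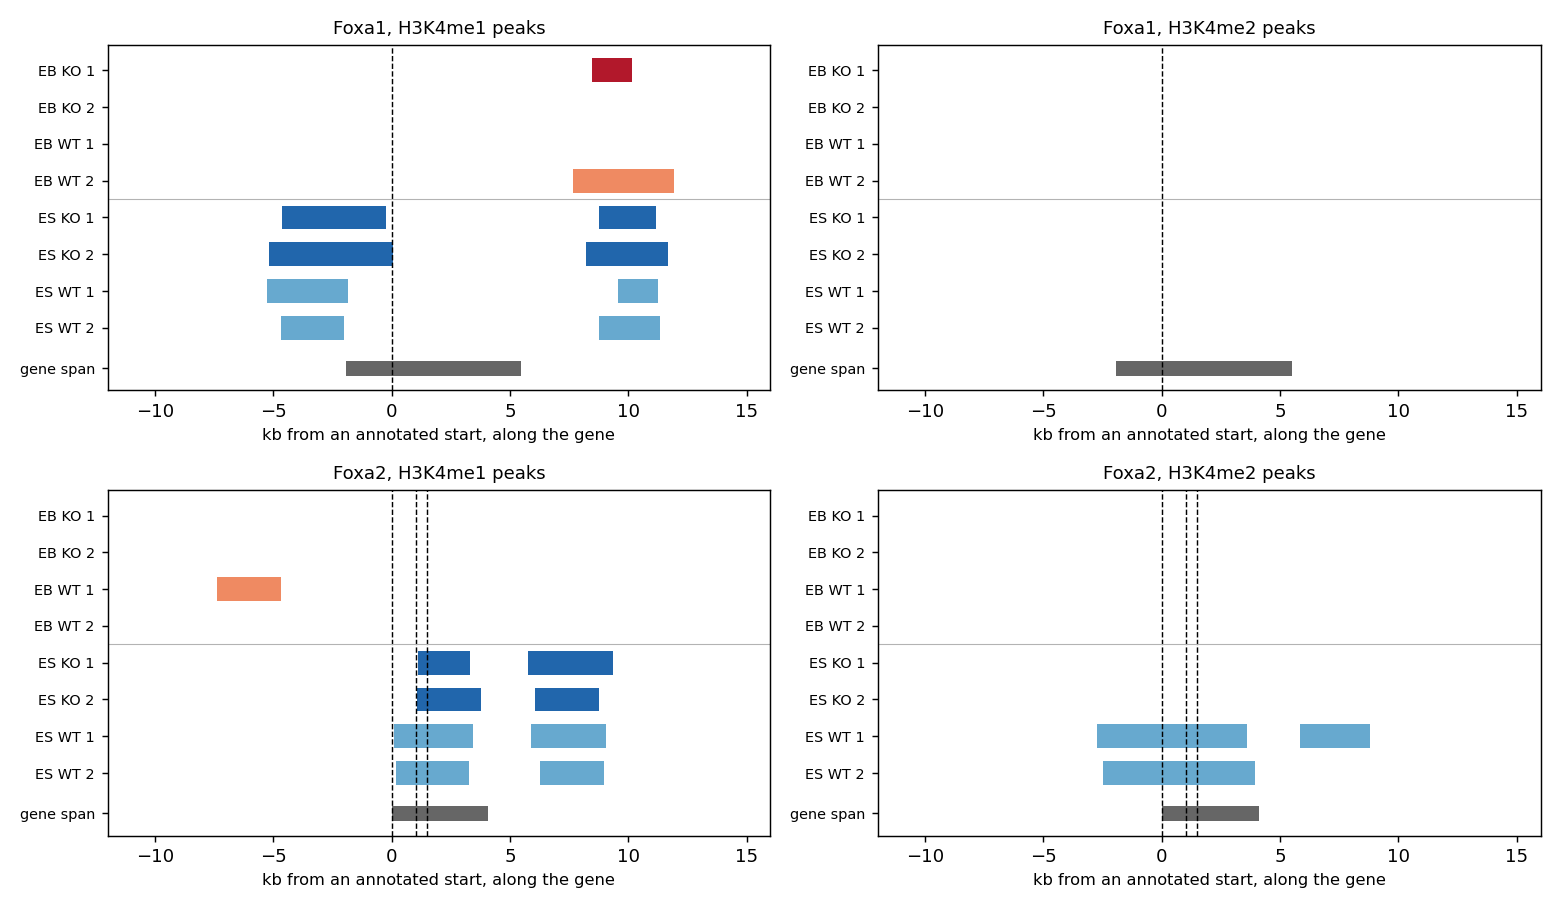
Peaks of H3K4me1 (left) and H3K4me2 (right) at Foxa1 and Foxa2 in each library, against the distance in kb from the annotated start along the gene (for Foxa2, from the outermost of 3 starts). Dashed lines mark annotated starts and the grey bar is the gene span. In 4 of 4 ES libraries H3K4me1 peaks lie around the 5′ end of the Foxa1 span and beyond its 3′ end, and over and beyond Foxa2. H3K4me2 peaks appear at Foxa2 in both WT ES libraries alone.

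Across all genes 0 passed an adjusted p of 0.05 for stage by the exact permutation test in either mark, while 3904 genes in H3K4me2 and 3110 in H3K4me1 had an unadjusted exact permutation p below 0.05. The smallest Benjamini-Hochberg adjusted exact p was 0.16 in H3K4me2 and 0.201 in H3K4me1. In H3K4me2, 0 of the 9 genes separated the stages, where 14.1% of genes were lower and 3.75% higher in every EB list. In H3K4me1, 0 of the 9 were higher in every EB list, as were 2.08% of genes. The median difference of EB minus ES over the 9 genes was -0.471 kb in H3K4me2 and -0.221 kb in H3K4me1, and over all genes it was -0.0288 and 0 kb.

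In presence calls within a genotype, a gene marked in both lists of 1 stage and neither of the other was called EB-only or ES-only. Over 2 marks and 2 genotypes the 9 genes gave 0 EB-only and 6 ES-only calls of 36. All genes gave 3.16% EB-only and 6.34% ES-only, and the other endoderm genes gave 9 EB-only and 30 ES-only calls of 244. The ES-only calls were Foxa1 and Foxa2 in H3K4me1 of KO (8.13% of genes), Foxa2 and Cxcr4 in H3K4me1 of WT (6.68%), Afp in H3K4me2 of KO (6.26%) and Foxa2 in H3K4me2 of WT (4.3%). The EB lists were shorter than the ES lists in H3K4me2 of both genotypes and in H3K4me1 of KO. In H3K4me1 the KO lists held 8943 and 5990 peaks in EB against 14945 and 13901 in ES cells. The WT H3K4me1 lists of the stages overlapped in length. The part of list length in these calls was not tested beyond the equal-length lists.

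Among the 61 other endoderm genes, the ES-only calls of H3K4me2 were Isl1, Hnf4g, Foxa3 and the basement membrane collagens Col4a1 and Col4a2 in KO (6.26% of all genes). In WT there were 11 (4.3% of all genes), which included both collagens, the factors Gata4, Gsc and Otx2 and the keratins Krt8 and Krt18. In H3K4me1 there were 8 in KO (8.13% of all genes), with Cebpa of liver among them. There were 6 in WT (6.68% of all genes), with Gata4 and Shh among them. EB-only calls in H3K4me1 fell on Furin in KO (1.55% of genes) and on Krt19, Spink1, Gata5, Foxa3 and Apoe in WT (3.67%). In H3K4me2 they fell on Lrp2 and Onecut1 in KO (4.12%) and on Lhx1 in WT (3.3%).

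At Sox17 and Gata6 in H3K4me1 and at Hnf4a in H3K4me2, a region held peaks in 3 of 4 EB lists and in no ES list. This way of counting was chosen after the values were seen. Such a region lay within 10 kb of 7.22% of all genes in H3K4me1 and of 5.56% in H3K4me2. The reverse, at least 3 ES lists and no EB list, held for Foxa1 and Foxa2 in H3K4me1 (19.4% of all genes) and for 0 of the 9 in H3K4me2 (22.9%). Gata6 (chr18:11052510-11085636), a GATA factor of primitive and definitive endoderm, had H3K4me1 cover of 0 and 3524 bp in KO EB and 1779 and 1292 bp in WT EB, against 6664 and 0 bp in KO ES cells and 0 and 0 bp in WT ES cells. The 3 EB peaks overlapped each other inside the gene, at chr18:11075965-11079488, where no ES list had a peak. The ES peak of KO replicate 1 lay elsewhere, over the lower-coordinate gene end. No H3K4me2 peak lay within 10 kb of Gata6 in any list, and the nearest was 11.2 to 266 kb away.

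At Sox17 (chr1:4490928-4497426), an HMG-box factor needed for definitive endoderm, an H3K4me1 region at chr1:4481196-4482179 held a peak in KO EB replicate 1 and in both WT EB lists and in 0 of 4 ES lists. Its position was -9732 to -8749 bp from the lower-coordinate gene end. Its peaks had scores above those of 44%, 41% and 74.4% of peaks in KO EB replicate 1, WT EB replicate 1 and WT EB replicate 2.

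Hnf4a (chr2:163506811-163572907, plus strand), a nuclear receptor of liver and visceral endoderm, held an H3K4me2 region at its downstream start, at chr2:163546990-163549158. The region had peaks in KO EB replicate 1 and both WT EB lists, and in 0 of 4 ES lists. The peak covered the start at position 163547155 in KO EB and began 779 and 598 bp after it in WT EB. At chr2:163534492-163536076, inside the gene, H3K4me2 peaks were present in both KO ES lists and in WT EB replicate 2, and in no WT ES list. KO ES replicate 2 and WT EB replicate 2 are the H3K4me2 libraries whose titles open with 400. The WT EB peak scored above 10.5% of the peaks of its list. Summed over the gene with its flanks, H3K4me2 covered 2169 and 0 bp in KO EB and 1733 and 2125 bp in WT EB, against 1334 and 1327 bp in KO ES cells and 0 and 1528 bp in WT ES cells, so the stages overlapped. The upstream start lay under a peak in WT EB replicate 1 alone, with a score above that of 1.24% of peaks.

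The comparison of genotypes asked what differed between Prdm16 KO and WT cells of 1 stage. With 2 libraries against 2, the smallest two-sided exact permutation p is 0.333, so no gene could pass 0.05 and the values per library are the result. The smallest Benjamini-Hochberg adjusted exact p over all genes was 0.776 in H3K4me2 of EB, 0.851 in H3K4me2 of ES cells and 1 in H3K4me1 of both stages.

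Hnf4a held H3K4me1 over 0 and 0 bp in KO ES cells, against 4233 and 3816 bp in WT ES cells. The WT peaks overlapped each other at chr2:163513027-163517365, inside the gene and 6216 bp or more from its lower-coordinate end, and both KO lists had none there. They scored above 84.4% and 94% of the peaks of their lists. The difference of KO minus WT was -4.02 kb, with an exact permutation p of 0.333, and it was the same at equal list lengths and at a score of at least 100. WT ES replicate 2 also had an H3K4me2 peak in this region. Of all genes, 7.33% had less H3K4me1 cover in both KO than in both WT ES lists. In EB the 4 lists held 744 and 0 bp in KO and 0 and 0 bp in WT, and the KO peak lay in another region.

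Foxa2 held H3K4me2 over 0 and 0 bp in KO ES cells, against 9301 and 6411 bp in WT ES cells. The WT peaks covered all 3 annotated starts, and the KO lists held none within 10 kb. The difference was -7.86 kb (exact permutation p = 0.333), where 5.31% of genes had less cover in both KO than in both WT ES lists. The WT peaks scored above only 18.7% and 8.08% of the peaks in replicate 1 and 5.97% in replicate 2. In the higher-scoring 50% of each list and at equal list lengths no Foxa2 H3K4me2 peak was left and the difference was 0. In EB, all 4 lists were at 0.

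Sox17 held H3K4me2 over 7160 and 7456 bp in KO ES cells, against 5247 and 2819 bp in WT ES cells. Each KO list had 1 peak over all or nearly all of the gene, WT replicate 1 had 2 peaks of 3534 and 1713 bp with a gap, and WT replicate 2 had 1 peak of 2819 bp at the lower-coordinate end. The KO values were above both WT values, by 3.27 kb on average (exact permutation p = 0.333), as for 33.9% of all genes, and by 2.06 kb without WT ES replicate 2. The scores ran the other way: the peak was above 58.4% and 48.9% of peaks in the KO lists, and the highest peak was above 83.6% and 94.5% in the WT lists. Counted as peaks, the difference of KO minus WT was -0.5, and at equal list lengths it was 0.404 kb with overlapping groups. In EB, Sox17 H3K4me2 covered 2692 and 0 bp in KO and 0 and 7206 bp in WT, and the genotypes overlapped.

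**Figure D3:**
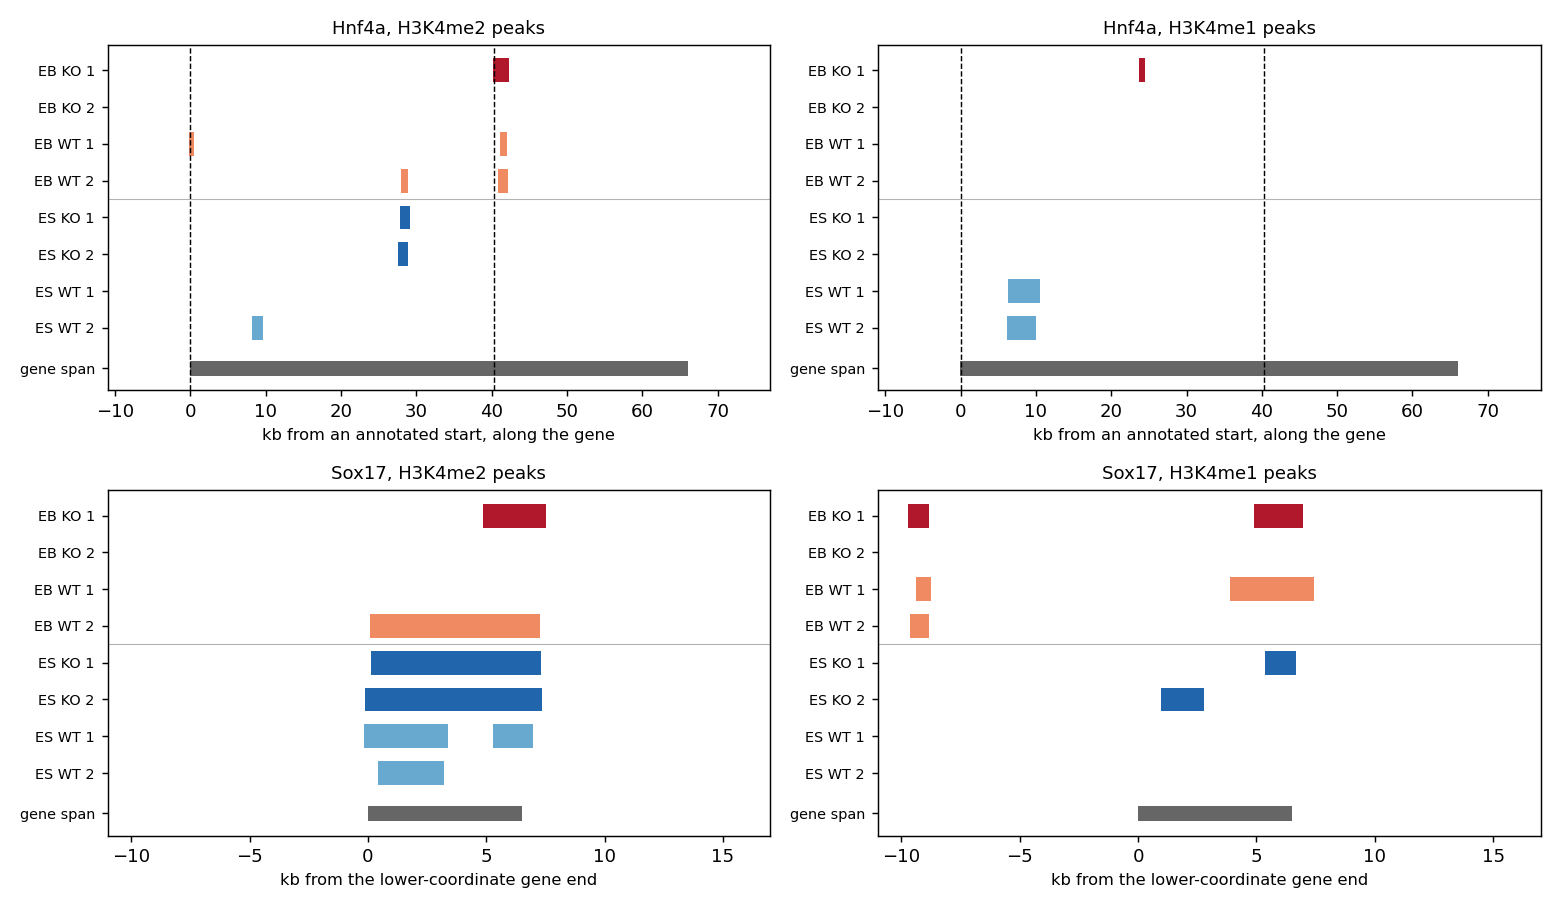
Peaks at Hnf4a (top) and Sox17 (bottom) in each library, against the distance in kb from the upstream annotated start of Hnf4a or from the lower-coordinate end of Sox17. Dashed lines mark annotated starts and the grey bar is the gene span. The H3K4me1 peaks 6 to 11 kb into Hnf4a are those of the WT ES libraries, and the distal H3K4me1 peaks below Sox17 are those of 3 EB libraries.

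Foxa1 H3K4me1 was higher in KO than WT ES cells by 2.54 kb on average, with the values above, and Sox17 H3K4me1 covered 1320 and 1815 bp in KO ES cells against 0 and 0 bp in WT ES cells. Both had KO lists above both WT lists (exact permutation p = 0.333 each), as had 9.64% of all genes. The Sox17 peaks of the KO lists did not overlap each other, lying at chr1:4496294-4497613 and chr1:4491914-4493728, and at equal list lengths none was left. For Foxa1 the difference was 1.61 kb without KO ES replicate 2, and 0.823 kb with overlapping groups at a score of at least 100.

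Cxcr4 (chr1:128588199-128592299, minus strand) encodes the receptor of the chemokine CXCL12 and is used as a surface marker of definitive endoderm. Its H3K4me2 cover was 6544 and 5233 bp in KO EB and 7682 and 0 bp in WT EB, against 4462 and 4103 bp in KO ES cells and 4068 and 3682 bp in WT ES cells. The WT EB replicate 2 library stood alone without a peak, and it is also 1 of the 2 H3K4me2 libraries whose titles open with the number 400 rather than 329, a number taken here as a library series although the labels do not say what it marks. The ES peaks ranked above 95.8% and 97.9% of peaks in the KO lists and 97.6% and 96.8% in the WT lists. In EB the peak ranked above 28.6% and 49.9% of peaks in the KO lists and above 8.57% in WT replicate 1. Ranks from lists of different lengths show no change by themselves. KO ES values were above both WT ES values, by 0.407 kb, as for 33.9% of all genes, and below them, by -8.29 ppm, when cover was scaled to all covered bases of the list. The difference was 0.228 kb without KO ES replicate 1 and 0.214 kb without WT ES replicate 2.

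H3K4me1 at Cxcr4 covered 3793 and 0 bp in KO EB and 0 and 1218 bp in WT EB, against 0 and 0 bp in KO ES cells and 1045 and 3298 bp in WT ES cells. The ES genotypes did not overlap, with a KO minus WT difference of -2.17 kb and an exact permutation p of 0.333, as for 7.33% of all genes, and the EB genotypes did. The difference was -3.3 kb without WT ES replicate 1 and -1.04 kb without WT ES replicate 2. At equal list lengths it was -1.65 kb with overlapping groups, and at a score of at least 100 it was 0.

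Hhex (chr19:37434841-37440731, plus strand), a homeobox factor of anterior endoderm and the liver bud, had H3K4me2 cover of 3535 and 4850 bp in KO EB and 5207 and 5163 bp in WT EB, against 5446 and 5379 bp in KO ES cells and 5716 and 4634 bp in WT ES cells. It was the only one of the 9 genes with an H3K4me2 peak in 8 of 8 lists, and the peaks scored above 57.6% to 93.5% of those in their lists. The share of all genes with a peak in 8 of 8 lists was not counted. Near a gene end, 48.8% to 52.8% of all genes were marked by H3K4me2 in both lists of a group. In EB both KO values were below both WT values, by -0.993 kb, as for 38.9% of all genes, while 0 of the 9 genes were higher in both KO EB lists in H3K4me2 (4.07% of all genes) or in H3K4me1 (2.96%). The difference was -0.335 kb without KO EB replicate 1 and -1.65 kb without KO EB replicate 2. Scaled to all covered bases of the list it was 11.2 ppm, in the other direction and with overlapping groups. H3K4me1 at Hhex covered 0 and 0 bp in KO EB and 2138 and 640 bp in WT EB, against 0 and 2618 bp in KO ES cells and 1694 and 2694 bp in WT ES cells. The EB genotypes did not overlap (-1.39 kb, exact permutation p = 0.333; 15.8% of all genes were lower in both KO EB lists), but the WT peaks lay in different places, chr19:37435930-37438067 and chr19:37433749-37434388. The difference was -0.64 kb without WT EB replicate 1 and -2.14 kb without WT EB replicate 2. It was 0 in the higher-scoring 50% of each list, at a score of at least 100 and at equal list lengths. In the 5 lists with an H3K4me1 peak at Hhex the peak did not cover the start, and all 5 lay inside the span of the H3K4me2 peaks, chr19:37432581-37438437.

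**Figure D4:**
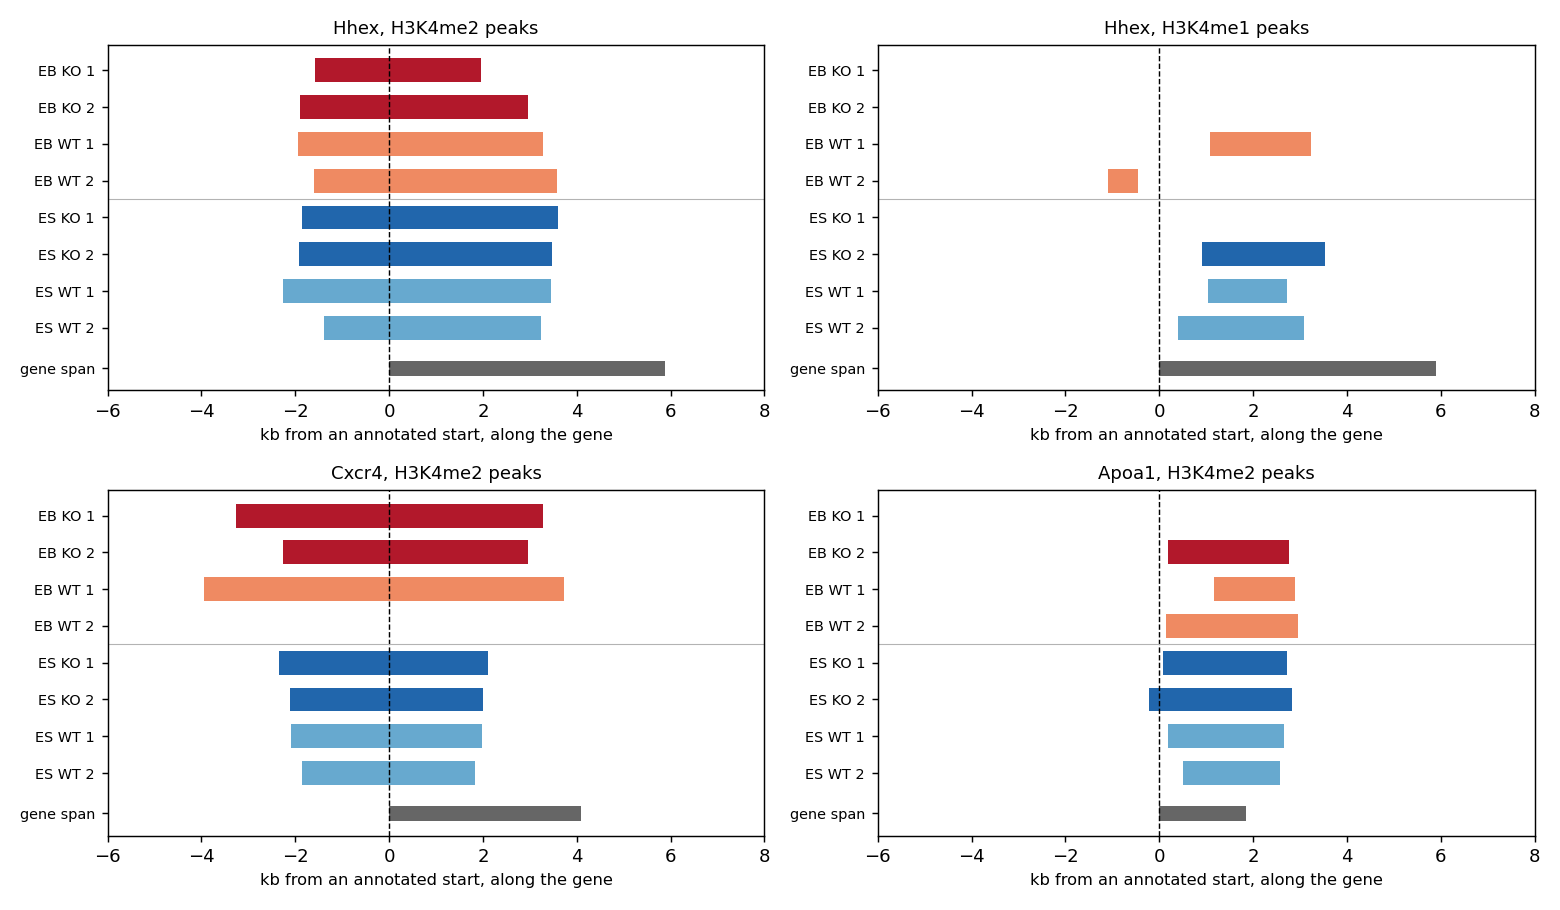
Peaks at Hhex (H3K4me2 and H3K4me1), Cxcr4 (H3K4me2) and Apoa1 (H3K4me2) in each library, against the distance in kb from the annotated start along the gene. Dashed lines mark the start and the grey bar is the gene span. The H3K4me2 peaks of Hhex and Cxcr4 lie across the start, the H3K4me1 peaks of Hhex lie to either side of it, the Apoa1 peaks lie mostly after it, and Cxcr4 has no peak in WT EB replicate 2.

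Of the genes for secreted proteins, Apoa1 (chr9:46228630-46230469, plus strand), which encodes the main apolipoprotein of high-density lipoprotein, had H3K4me2 cover of 0 and 2585 bp in KO EB and 1716 and 2820 bp in WT EB, against 2654 and 3034 bp in KO ES cells and 2475 and 2058 bp in WT ES cells. KO EB replicate 1 alone had no peak. KO ES values were above both WT values, by 0.578 kb, as for 33.9% of all genes. The mean difference was 0.388 kb without KO ES replicate 2, 0.369 kb without WT ES replicate 2, and -0.574 ppm, with overlapping groups, after scaling to the covered bases of the list. Scores were above 86.6% and 86.4% of peaks in the KO ES lists and 73.6% and 72.5% in the WT ES lists, and above 0.166% in KO EB replicate 2 and 19.3% and 55.8% in the WT EB lists. The peak covered the start in KO ES replicate 2 alone. Of 2 neighbouring genes within 10 kb, 1 is Apoc3, and the cover is shared with the window of Apoc3. H3K4me1 near Apoa1 was limited to 1 peak of 882 bp, in KO ES replicate 1, 8.63 kb from the gene.

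Afp (chr5:90490714-90508907, plus strand), the gene of the fetal plasma protein alpha-fetoprotein made by visceral endoderm and fetal liver, had H3K4me2 peaks in KO ES cells alone. They covered 944 and 939 bp in KO ES cells, against 0 and 0 bp in WT ES cells, and all 4 EB lists were at 0. Both peaks lay near the 3′ end, at chr5:90507271-90508241, and not at the promoter printed above. Of all genes, 33.9% had more cover in both KO than in both WT ES lists. The Afp peaks scored above 29.3% and 36.7% of the peaks in their lists, and at equal list lengths neither was left. No H3K4me1 list held a peak within 10 kb of Afp, and the nearest was 126 to 151 kb away.

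**Figure D5:**
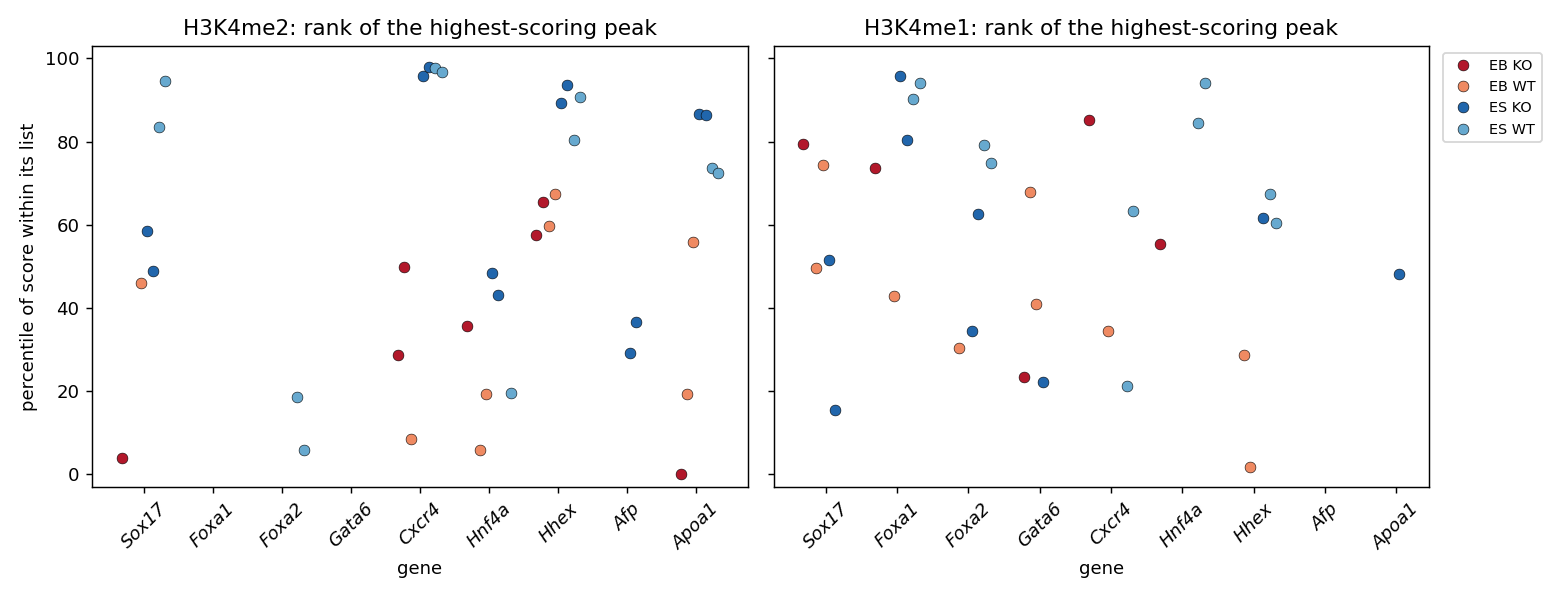
Percentile of the highest-scoring peak at each gene (span plus 10 kb either side) among the scores of its own list, for H3K4me2 (left) and H3K4me1 (right), with 1 point per library that had a peak. Cxcr4 lies above the 95th percentile in the 4 ES lists of H3K4me2, Foxa2 lies below the 20th in both WT ES lists, and the Hnf4a H3K4me1 peaks of WT ES cells lie at 84.4 and 94.

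Counted as presence calls at the gene ends, over 2 marks and 2 stages, 2 of 36 were KO-only and 3 were WT-only. All genes gave 1.46% KO-only and 2.2% WT-only, and the other endoderm genes gave 6 and 12 calls of 244. The KO-only calls were Afp in H3K4me2 of ES cells (1.91% of genes) and Sox17 in H3K4me1 of ES cells (1.31%). The WT-only calls were Foxa2 in H3K4me2 of ES cells (1.22%), Cxcr4 in H3K4me1 of ES cells (1.79%) and Hhex in H3K4me1 of EB (4.14%). With lists held to equal length, 13818 peaks for H3K4me2 and 5990 for H3K4me1, both counts were 0. Hnf4a is not among these calls because its H3K4me1 region lies farther than 2500 bp from a gene end. It is WT-only when the window is widened to 10 kb.

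Among the other endoderm genes the KO-only calls of H3K4me2 in EB were Nkx2-1, Otx2, Lrp2, Trh and Onecut1 (2.05% of genes), and the WT-only call was Foxa3 (1.64%). In H3K4me1 of EB the WT-only calls were Lamc1, Apoa2, Spink1, Gata5 and Kit (4.14% of genes), and there was no KO-only call (0.58% of genes). In ES cells the H3K4me2 calls were Gsc, Onecut1 and Eomes, all WT-only (1.22% of genes), where 1.91% of genes were KO-only. The H3K4me1 calls of ES cells were Foxa3 as KO-only (1.31%) and Lefty1, Gsc and Gata4 as WT-only (1.79%). Onecut1, a liver and pancreas factor, was thus KO-only in EB and WT-only in ES cells in the same mark, and the difference between stages was not tested.

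The PRDM16 lists were short, with 146 to 586 peaks each over 0.192 to 0.364 Mb. The share of all genes with a PRDM16 peak within 10 kb was not counted. No PRDM16 peak lay within 10 kb of any of the 9 genes in any of the 8 PRDM16 lists, KO lists included. The nearest was 26 kb from Cxcr4, in KO ES replicate 2. At Hhex the nearest was 56.6 kb away in KO ES replicate 2 and 138 kb away in WT ES replicate 1. For the other 7 genes it was 888 kb away or more.

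The genes whose cover over the 16 H3K4 methylation libraries was most like that of these genes are given as a description, since libraries of both marks enter the Pearson correlation and their list lengths are shared by every gene. Apoa1 was most like its neighbour Apoc3 (r = 0.99), with which it shares a window, and Foxa1 was most like Ache (0.95), then its neighbour Ttc6 (0.94). Hhex was most like Col12a1 (0.97), Gata6 like Dda1 (0.96), Foxa2 like Trim72 (0.94) and F2 (0.93), Hnf4a like Foxc1 (0.91), Sox17 like Ccdc83 (0.9) and Cxcr4 like Arl4c (0.88). None of the 9 genes was among the 3 most like another, since the members were left out of that search.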

How the data were processed

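Each of the 24 CUT&RUN libraries came with 1 deposited peak list (position, MACS peak name, score). The score is the authors' deposited value, at least 50 in each list, of unknown unit, and served here for ranks and thresholds inside 1 list. The submitters' processing notes name mm10, Bowtie2, SAMtools 1.5, HOMER 4.10, MACS2, bedtools and deepTools. The sources used here do not state any control library, duplicate removal or depth scaling. The 1 mitochondrial peak of each list was left out.

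Groups and replicate numbers came from the sample titles. Genes, starts and promoters came from RefSeq GRCm38.p6; strand and start were used for 7 of the 9 genes, so windows of 2500 bp were set at both gene ends, and exons and introns were not resolved. Covered bp in the gene span plus 10 kb were compared by exact permutation of libraries (two-sided) on all 21887 protein-coding genes, with Benjamini-Hochberg adjustment, after testing on simulated data (Python 3.11.15, numpy 2.4.6, pandas 2.3.3). In the stage test KO and WT libraries were pooled and assigned without regard to genotype. The text names all 9 genes, other endoderm genes only where called in 1 group alone (Foxa3, for example), and the most correlated genes. Genes and lists were chosen with earlier results of these data known. Alternatives were other windows, score thresholds, equal list lengths, scaling, peak numbers, left-out libraries, the library series and the replicate number as a block. Some items searched are not reported here.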

Additional observations from a re-analysis of the deposited data

How the results depend on the processing

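The 13 differences in covered bp whose groups did not overlap were run under other settings. For KO minus WT none could pass an adjusted p of 0.05, since the smallest exact permutation p with 2 libraries against 2 is 0.333. No stage or genotype difference passed it under any setting run. Over 157 alternative values, some of them a difference of 0, the Benjamini-Hochberg adjusted exact p ranged between 0.203 and 1. Of these values 4 turned the direction: with cover in ppm of the covered bases of the list, KO minus WT was 11.2 for Hhex H3K4me2 in EB, -8.29 for Cxcr4 and -0.574 for Apoa1 H3K4me2 in ES cells, and as a number of peaks it was -0.5 for Sox17 H3K4me2 in ES cells. The count of EB-only calls, 0 as reported, was 2 with windows of 10 kb (Sox17 and Gata6 H3K4me1 in WT), 1 with the gene span and 2500 bp either side (Gata6 H3K4me1 in WT), 1 with windows at annotated starts and 1 without the libraries of series 400 (Hnf4a H3K4me2 in WT both times). KO-only calls, 2 as reported, were 0 at annotated starts, where 7 of the 9 genes could be run, 0 in the higher-scoring 50% of each list, 1 at a score of at least 100 (Afp) and 0 at equal list lengths. WT-only calls, 3 as reported, were 0 in the higher-scoring 50%, 1 at a score of at least 100 (Foxa2 H3K4me1 in ES cells) and 0 at equal list lengths. ES-only calls, 6 as reported, were 4 with windows of 10 kb, 8 in the higher-scoring 50% and 7 at a score of at least 100. With windows of 10 kb, Foxa1 in KO and Foxa2 and Cxcr4 in WT, all in H3K4me1, were no longer called. In the higher-scoring 50%, Afp and Foxa2 in H3K4me2 were no longer called. At equal list lengths the ES-only calls were 4, namely Foxa1 in KO and WT and Foxa2 and Hhex in WT, all in H3K4me1. Over the libraries left out in turn, KO-only calls ranged between 2 and 3, WT-only between 3 and 4, EB-only between 0 and 1 and ES-only between 6 and 7. The EB-only call appeared without H3K4me2 WT EB replicate 2 (Hnf4a), H3K4me1 KO EB replicate 2 (Cxcr4) or H3K4me1 WT EB replicate 2 (Sox17). The cause of these changes was not tested.

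Same-numbered KO and WT libraries did not deviate together: the correlation of their deviations across genes was -0.03 and -0.0905 in H3K4me2 of EB and ES cells and 0.0112 and 0.0684 in H3K4me1. With the replicate number as a block, the paired exact permutation p of Foxa1 and of Foxa2 H3K4me1 between stages was 0.125 (Benjamini-Hochberg adjusted exact p = 0.726), with unchanged differences of -4.95 and -5.21 kb. For KO minus WT the replicate block gave an exact permutation p of 0.5 at the lowest. Depth is unknown, so a peak missing from the shorter EB lists was not read as a missing mark.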

Other observations

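Gene lists of other lineages were counted in the same way, as genes with a peak near a gene end in both lists of a group. Of 15 mesoderm genes, H3K4me2 marked 5 in KO EB, 4 in WT EB, 7 in KO ES cells and 8 in WT ES cells, and H3K4me1 marked 1, 2, 5 and 4 in the same groups. Of 15 neuroectoderm genes, H3K4me2 marked 5 in KO EB, 1 in WT EB, 7 in KO ES cells and 8 in WT ES cells, and H3K4me1 marked 1, 3, 4 and 5. H3K4me1 marked 2, 1, 2 and 3 of the 15 pluripotency genes in these groups. The lists share genes (Gata4, Otx2, Mixl1, Sox2 and Tbx3 stand in more than 1), and no difference between lists or groups was tested.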
